A study of Mus musculus with 180 samples.

Results

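The aryl hydrocarbon receptor (AhR) pathway was followed through 6 genes, Ahr, Ahrr, Arnt, Tiparp, Cyp1a1 and Cyp1b1, in mouse macrophages treated with clinical kinase inhibitors (CKIs). The 6 genes were taken by their symbols and make up 6 of the 45070 genes in the table of normalized exonic read counts, with 1 row for each. Wild type bone marrow-derived macrophages (BMDMs), primary cells grown out of mouse bone marrow, received 1 of 58 CKIs or the vehicle DMSO for 1 h, and lipopolysaccharide (LPS, a bacterial cell wall component that activates macrophages) at 10 ng/ml was then given for 2 h. There were 3 samples for each CKI and 6 for DMSO, 180 in all, and no sample without LPS is analysed here. The DMSO samples carry the labels of 2 sets of 3, which the labels do not tie to particular CKIs, so all 6 served as the reference. Each CKI was used at the concentration set for its intended target, a kinase that may differ from the designated target of the drug, so doses differ between CKIs and no CKI was tested against another.

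AhR is a transcription factor of the basic helix-loop-helix PAS family that is opened by small molecules, among them dioxins, plant indoles and breakdown products of tryptophan. Without ligand it waits in the cytoplasm in a complex with HSP90 and p23. With ligand it moves to the nucleus, pairs with ARNT and binds xenobiotic response elements, which share the core GCGTG. Cyp1a1 and Cyp1b1, which encode cytochrome P450 enzymes that oxidize many ligands, are its best known targets. Ahrr and Tiparp are targets that act back on the receptor: AHRR competes for ARNT and the response elements, and TIPARP is an ADP-ribosyltransferase that modifies AhR. ARNT also pairs with the hypoxia-inducible factors, and Tiparp and Ahrr respond to other stimuli as well, so that a change in either gene alone is no measure of AhR activity.

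The promoters of the 4 target genes are shown because the core of the response element is what the pathway's targets have in common. They are the 250 bases before the start of the gene in RefSeq (GRCm38.p6), each printed in the direction of its gene, with the core GCGTG, or its reverse complement CACGC, in capitals and everything else in lower case. They come from chr13:74292332-74292581 on the minus strand for Ahrr, chr3:65528197-65528446 on the plus strand for Tiparp, chr9:57697363-57697612 on the plus strand for Cyp1a1 and chr17:79715062-79715311 on the minus strand for Cyp1b1. The start used by the RefSeq promoter table for Cyp1a1 lies inside the interval given for the gene below, so its promoter lies inside that interval too.
Ahrr: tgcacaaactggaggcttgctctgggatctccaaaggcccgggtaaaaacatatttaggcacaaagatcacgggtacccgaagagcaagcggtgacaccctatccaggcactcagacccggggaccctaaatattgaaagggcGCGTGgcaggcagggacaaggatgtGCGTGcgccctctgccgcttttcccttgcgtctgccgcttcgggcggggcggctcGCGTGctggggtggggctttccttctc
Tiparp: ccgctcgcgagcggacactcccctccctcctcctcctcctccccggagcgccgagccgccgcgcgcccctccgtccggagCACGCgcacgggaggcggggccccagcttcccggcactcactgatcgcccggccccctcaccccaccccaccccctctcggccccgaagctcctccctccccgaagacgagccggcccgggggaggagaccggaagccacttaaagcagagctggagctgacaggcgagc
Cyp1a1: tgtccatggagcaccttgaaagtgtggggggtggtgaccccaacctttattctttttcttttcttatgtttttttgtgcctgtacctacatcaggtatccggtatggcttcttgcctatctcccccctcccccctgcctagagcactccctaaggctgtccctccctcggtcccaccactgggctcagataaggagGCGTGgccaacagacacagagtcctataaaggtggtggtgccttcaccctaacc
Cyp1b1: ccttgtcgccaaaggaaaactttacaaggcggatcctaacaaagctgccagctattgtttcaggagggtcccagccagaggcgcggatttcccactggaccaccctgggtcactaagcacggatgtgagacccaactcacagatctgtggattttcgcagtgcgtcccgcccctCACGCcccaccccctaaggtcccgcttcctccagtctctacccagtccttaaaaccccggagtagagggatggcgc
Ahrr held 3 cores, at 107, 82 and 27 bases before its start. Tiparp held 1 core at 170 bases, Cyp1a1 had 1 at 54 bases and Cyp1b1 had 1 at 76 bases before the start. Arnt, which is not counted among the targets, also held 1, at 29 bases, and of the 6 genes 5 were matched to a promoter. Searched on both strands, the core was present in 28.2% of 32851 RefSeq promoters of this length, and 2.77% held 3 or more, as Ahrr did. The same letters are a form of the hypoxia response core, and a match is a description of the sequence, not of a bound site.

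The totals of the normalized values lay between 9477340 and 12273349 in the 180 samples. All 7 macrophage markers examined, among them Adgre1, Csf1r and Lyz2, had a mean of at least 10. The 6 fibroblast markers (Col1a1, Col1a2, Col3a1, Dcn, Lum and Pdgfra) summed to 4 to 222 in the CKI samples and to 19 to 147 in DMSO, and Lum was at 0 in 162 samples, Dcn in 133 and Pdgfra in 114. The share of values on mitochondrial genes was 0.525% to 4.47% in the CKI samples and 0.759% to 1.94% in DMSO. The samples are bulk RNA, in which fewer cells of a type and less RNA per cell cannot be told apart. Differences from DMSO were tested with limma on log2(normalized value + 1), with p-values adjusted over the 12714 genes with a mean of at least 10. A CKI was said to raise or lower a gene where the adjusted p was under 0.05. Fold changes on this scale understate the change of low genes.

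At 2 h of LPS the members differed widely in level. Per kb of exon, the mean over all samples was 1037 for Tiparp, 105 for Arnt, 12.5 for Ahrr, 6.21 for Ahr, 1.62 for Cyp1b1 and 0.0359 for Cyp1a1. Cyp1a1 and Cyp1b1 lay under the mean of 10 and were compared by exact permutation tests only. On this scale the feedback enzyme and the partner stood highest, the receptor and its repressor were low, and the cytochrome P450 genes were lowest.

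The question was which CKIs raise AhR target genes. Tanzisertib, a JNK inhibitor, raised Ahrr by 1.64 on the log2 scale, and Ahrr was the 1 gene of 12714 called higher in it. Ahr itself rose in 3 CKIs designated against PI3K or mTOR (BGT226, Omipalisib and PF04691502). Ahrr rose also in PF04691502 and Pimasertib and fell in Afatinib. Tiparp rose in none of the CKIs and fell in 6 (AZD2014, Afatinib, BMS911543, PH797804, Filgotinib and Apitolisib). Arnt fell in Afatinib and Pimasertib. Cyp1a1 and Cyp1b1 were too low for this test, and the permutation test used for them could not call a single CKI after adjustment. PF04691502 was the only CKI in which 2 members, Ahr and Ahrr, were called higher.

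**Figure D1:**
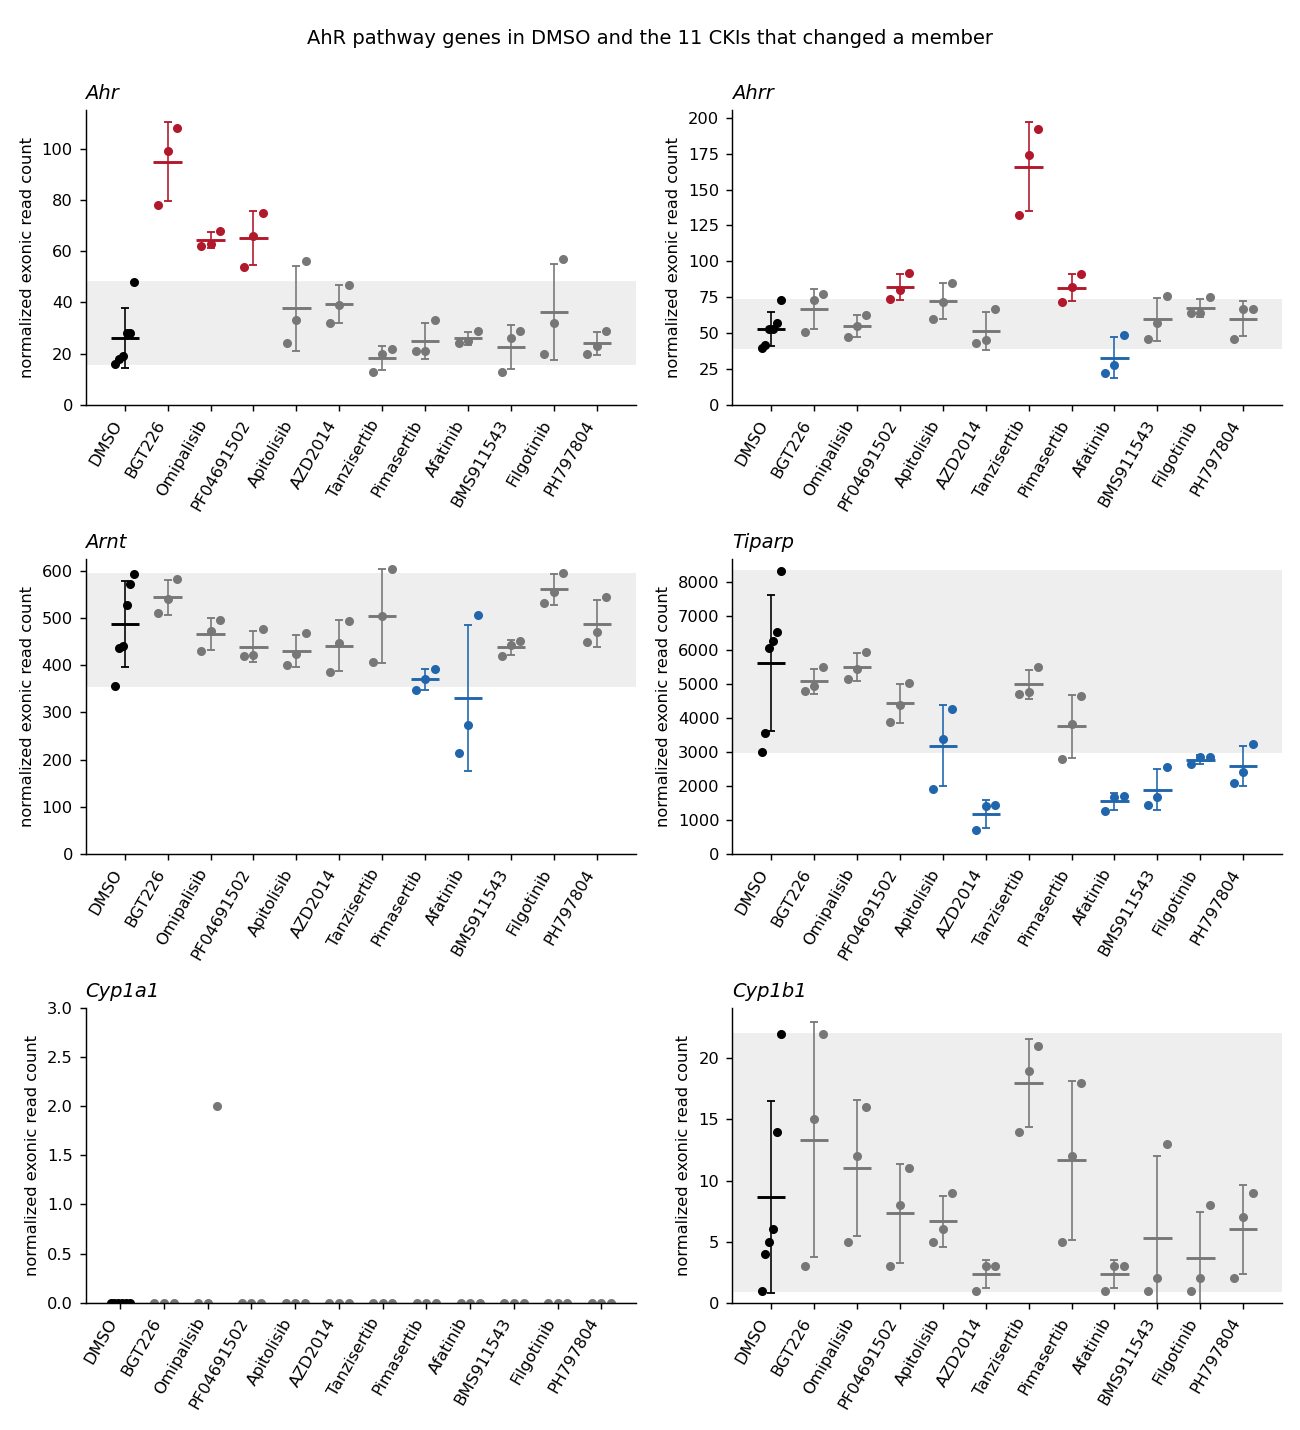
Normalized exonic read counts of the 6 genes (y axes, linear, each from 0) in the 6 DMSO samples (black, grey band from lowest to highest) and in the 3 samples of each of the 11 CKIs that changed a member; bars are mean ± SD, except for Cyp1a1, and red and blue mark adjusted p under 0.05 for higher and lower. Ahrr in Tanzisertib (132 to 192) and Ahr in BGT226 (78 to 108) lie far above the band, Tiparp lies below it in all 3 samples of AZD2014, Afatinib, BMS911543 and Filgotinib, and Cyp1a1 is at 0 in all but 1 of these samples.

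Over all 58 CKIs and all tested genes, 2.52% of the comparisons were called higher and 1.65% lower. A median gene was called in 2 CKIs. Ahr was called in 3, more than 61.9% of the tested genes, Ahrr in 4 (74.0%), Arnt in 2 (45.7%) and Tiparp in 6 (88.7%). In a test across all 59 groups, which 48.6% of the tested genes passed, Ahr (adjusted p = 1.79e-05, limma F test), Ahrr (1.06e-07) and Tiparp (2.03e-10) varied between treatments. Arnt did not pass (0.104), but did with the replicate numbers as a block (0.0282) and with median-of-ratios scaling (0.0107). Tiparp was thus called more often than most genes, and Arnt about as often as the median gene.

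Ahr, the receptor (chr12:35497979-35534989, minus strand), was low in DMSO, with 16, 18, 19, 28, 28 and 48 (mean 26.2 ± 11.9, SD, n = 6). In BGT226, an inhibitor of PI3K and mTOR, its values were 78, 99 and 108, all above every DMSO sample. The difference from DMSO was 1.91 on the log2 scale (SE 0.34, adjusted p = 1.86e-06). In Omipalisib, a PI3K inhibitor, Ahr reached 62, 63 and 68 and rose by 1.36 on the log2 scale (SE 0.34, adjusted p = 0.00109). In PF04691502, again against PI3K and mTOR, it reached 54, 66 and 75 and rose by 1.37 (SE 0.34, adjusted p = 0.00306). These were the only 3 of the 58 CKIs whose 3 samples all lay above the DMSO samples. That is close to the share of 4.52% over all gene and CKI comparisons. None lay wholly below, against 2.02%. Within these CKIs, 19.5% of the tested genes lay wholly above DMSO in BGT226, 14.8% in Omipalisib and 9.05% in PF04691502.

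BGT226 and Omipalisib changed many genes, and Ahr was one among them. Of the tested genes 24.1% were higher and 6.32% lower in BGT226, 17.5% higher and 8.16% lower in Omipalisib, and 8.86% higher and 4.22% lower in PF04691502. The median of all genes was itself shifted in BGT226, by 0.21 on the log2 scale, and by 0.12 in Omipalisib and 0.10 in PF04691502. Median-of-ratios scaling took out that shift (0.01 in BGT226) and moved the share of calls that were higher from 79.2% to 50.7% in BGT226, from 68.2% to 49.5% in Omipalisib and from 67.8% to 42.1% in PF04691502. Ahr rose in all 3 CKIs with that scaling too, by 1.71 in BGT226. The sum of the LPS response genes Tnf, Il1b, Il6 and Cxcl2 was above all DMSO samples (12218 to 17319) in Omipalisib (18342 to 23722), and its part in the Ahr values was not tested. Leaving out replicate 2 of every group ended the call in Omipalisib (1.13, adjusted p = 0.0653) and in PF04691502 (1.30, adjusted p = 0.0720), and leaving out replicate 1 of the CKIs ended it in PF04691502 (1.26, adjusted p = 0.0948).

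Not every inhibitor of this axis showed a raised Ahr. In Apitolisib, which is also designated against PI3K and mTOR, Ahr had 24, 33 and 56 (0.52 on the log2 scale, adjusted p = 0.271). In AZD2014, an mTOR inhibitor, it had 32, 39 and 47 (0.65, adjusted p = 0.176). The AKT inhibitor MK2206 gave 26, 43 and 78 (0.84, adjusted p = 0.108), and GSK2110183, against the same kinase, gave 26, 35 and 38 (0.41, adjusted p = 0.617). The isoform-selective PI3K inhibitors lay apart from each other, with 48, 50 and 54 in TG100115 (1.02, adjusted p = 0.0808) and 14, 32 and 39 in AZD8186 (0.09, adjusted p = 0.998). All 9 CKIs of the axis had a mean above that of DMSO, but so did 47 of the 58 CKIs, and the median difference over the 58 was 0.30 on the log2 scale. The SE of 0.34 bounds what these comparisons could show, and a p above the threshold does not mean that a CKI left Ahr as it was.

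Further CKIs were near the threshold for Ahr, and whether they were called depended on single samples. In Lenvatinib, an inhibitor of VEGF receptors, it had 32, 55 and 59 (0.92, adjusted p = 0.0545), and TG100115 is given above. With the replicate numbers as a block both were called higher, with adjusted p = 0.0282 in Lenvatinib and 0.0343 in TG100115 (limma), which brought the count of CKIs from 3 to 5. The mitochondrial share was 2.07% to 3.70% in Lenvatinib, all above the DMSO samples, and 1.69% to 3.82% in TG100115. With that share as a further covariate neither was called (adjusted p = 0.469 in both), and Ahr in PF04691502 fell from 1.37 to 0.87 but stayed called (adjusted p = 0.0301). In Lenvatinib the share and the CKI cannot be told apart. Lenvatinib and TG100115 were also called without DMSO set 1 replicate 1 or without DMSO set 2 replicate 1, and Lenvatinib alone without replicate 1 of every group. Pacritinib had the widest spread, with 15, 78 and 84 (0.91, adjusted p = 0.167). Without CKI replicate 3 Pacritinib and MK2206 were called higher too, and without replicate 3 of every group Pacritinib was. At the other end Ahr was lowest in Apatinib, with a mean of 15.0, and no CKI was called lower, 1 having an unadjusted p under 0.05 against 11 on the higher side.

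**Figure D2:**
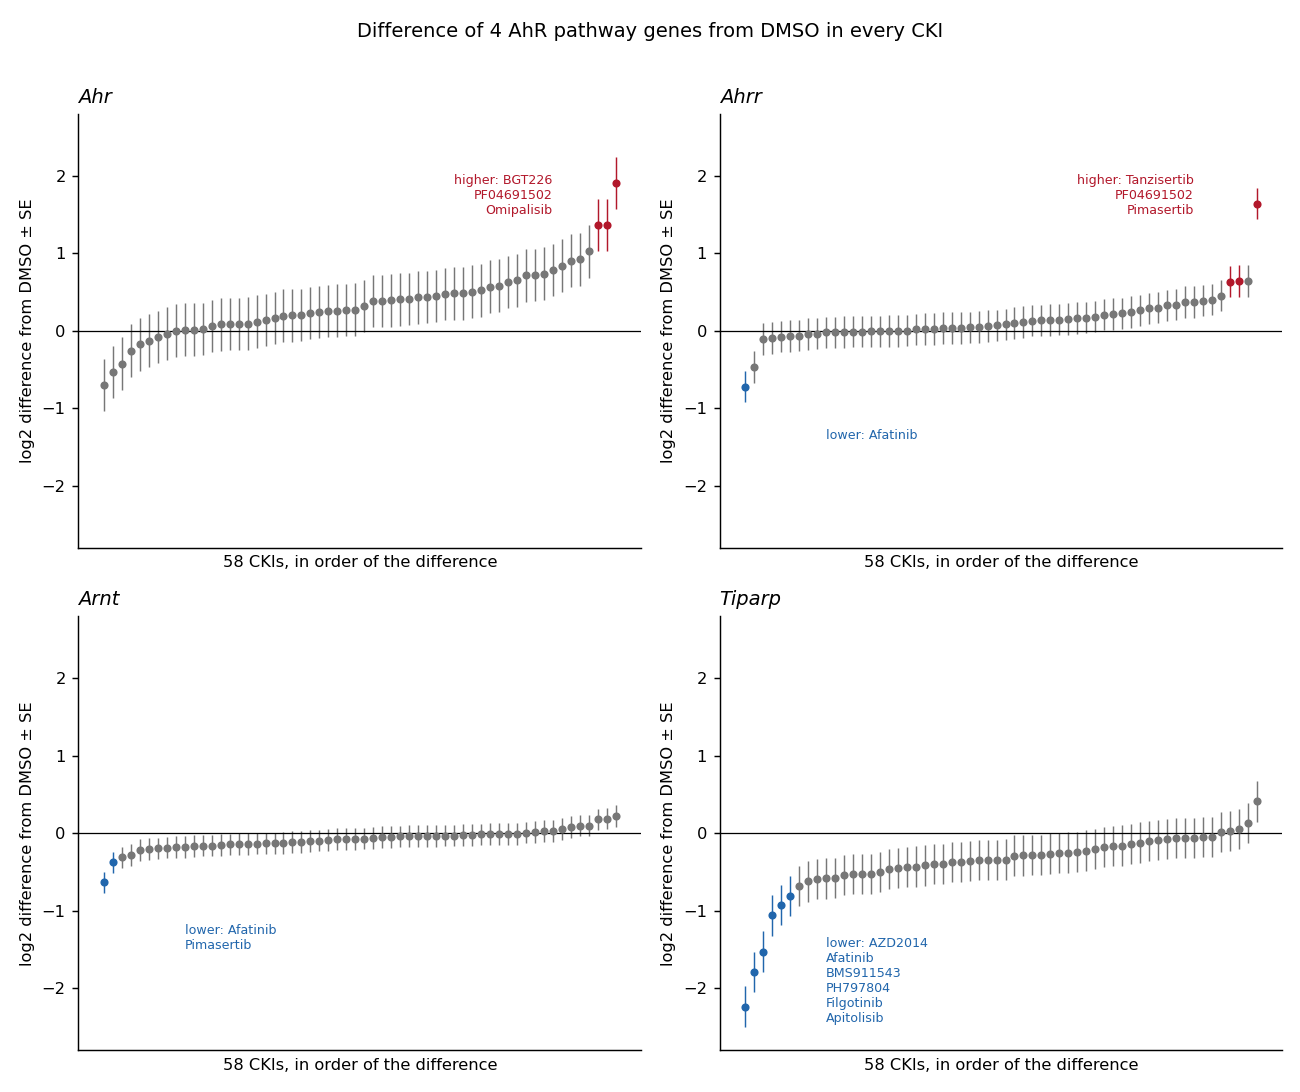
Difference of Ahr, Ahrr, Arnt and Tiparp from DMSO on the log2(normalized value + 1) scale (y axes, ± SE) in each of the 58 CKIs, sorted along the x axis within each gene; red and blue mark adjusted p under 0.05. Ahrr in Tanzisertib stands 1.64 above 0 with the next CKI at 0.65, Ahr climbs gradually up to 1.91, Arnt stays between -0.64 and 0.22, and the Tiparp points lie mostly under 0 with 6 called lower.

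Ahrr, the repressor (chr13:74211118-74292331, minus strand), had 40, 42, 53, 53, 57 and 73 in DMSO (mean 53.0 ± 11.9, SD, n = 6). In Tanzisertib its 3 samples reached 132, 174 and 192 (mean 166 ± 30.8, SD, n = 3). All lay above every DMSO sample, as was so for 0.346% of the tested genes there. The difference was 1.64 on the log2 scale (SE 0.20, adjusted p = 5.06e-09). No other gene of 12714 was called higher in Tanzisertib (0.00787% of the tested genes) and 8 were called lower (0.0629%). Ahrr stayed the highest of the 59 groups by a wide margin, the next means being 82.0 in Refametinib and in PF04691502. The call held in every alternative setting tried but 1, a fit on Tanzisertib and DMSO alone (adjusted p = 0.0508), and with the replicate block and the mitochondrial share it had adjusted p = 3.22e-10.

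Ahr, Arnt and Tiparp were not called in Tanzisertib. The permutation test used for Cyp1a1 and Cyp1b1 could not call a single CKI, so it cannot show whether they rose with Ahrr. Ahr had 13, 20 and 22, among the 3 lowest means of all groups and within the range of DMSO except for the lowest sample. Cyp1b1 had 14, 19 and 21 and Cyp1a1 was at 0 in all 3 samples. The Tanzisertib mean of Cyp1b1, 18.0, was the highest of the 59 groups, but its samples overlapped those of DMSO, which reached 22. None of the 20 other pathway genes tested was called in Tanzisertib with limma, and 1 had an unadjusted p under 0.05. The mitochondrial share in Tanzisertib was 0.525% to 1.23%.

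The study used 2 more CKIs with a JNK kinase as the intended target, and their Ahrr values went different ways. Refametinib, designated against MEK, had 76, 83 and 87, all above DMSO as for 8.35% of the tested genes there (0.65 on the log2 scale, SE 0.20, adjusted p = 0.115). With the replicate block it was called higher (adjusted p = 0.0350), and with the mitochondrial share added, which was 1.23% to 4.45% in Refametinib, the difference was about as large (0.60) but was not called (adjusted p = 0.396). Afatinib, designated against EGFR, had 22, 28 and 49 and fell by 0.72 on the log2 scale (SE 0.20, adjusted p = 0.00577). That call rested on replicates 1 and 2, since without CKI replicate 1 the adjusted p was 0.0774 (-0.64) and without CKI replicate 2 it was 0.197 (-0.48). The doses of the 3 CKIs differ, so the values stand side by side.

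Ahrr rose more weakly in 2 further CKIs. In PF04691502 it had 74, 80 and 92, all above DMSO as for 9.05% of the tested genes, and rose by 0.64 (SE 0.20, adjusted p = 0.0229). In Pimasertib, a MEK inhibitor, it had 72, 82 and 91 and rose by 0.64 (SE 0.20, adjusted p = 0.0194), with 1 sample inside the DMSO range. Both lost the call with median-of-ratios scaling, with 0.54 (adjusted p = 0.0662) and 0.52 (adjusted p = 0.0612). They also lost it without the DMSO sample of set 2 replicate 2 (adjusted p = 0.0695 in PF04691502 and 0.0594 in Pimasertib) and without either CKI replicate 1 (0.123 and 0.103) or CKI replicate 3 (0.108 and 0.0798). In PF04691502 the loss of DMSO set 1 replicate 3 had the same effect (adjusted p = 0.0561). In Pimasertib 16.0% of the tested genes were higher and 5.68% lower, and the scaling moved the share of higher calls from 73.8% to 47.0%.

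Pimasertib differed from DMSO in other measures as well. Its mitochondrial share (3.24% to 4.29%) and its sum of 7 neutrophil markers (1272 to 1468, against 266 to 931 in DMSO) lay above all DMSO samples. Over all 180 samples S100a8, Ngp and S100a9 had the highest medians of these markers (204, 193.5 and 130.5), and Ly6g was at 0 in 111. The sum of the 4 LPS response genes (9728 to 11171) lay below the range of 12218 to 17319 in DMSO. Their part in the Ahrr and Arnt values of Pimasertib was not tested. The mitochondrial share was added to the fit beside the replicate block. It was above DMSO in every Pimasertib sample, so share and CKI cannot be told apart there. The difference in Ahrr was then 0.56, close to the 0.64 without it, but was not called (adjusted p = 0.162), and that in Arnt went from -0.38 to -0.23 and was not called (0.534). Of the other inhibitors of the RAF, MEK and ERK chain, Refametinib lay above the DMSO samples as given above. The rest gave Ahrr values within or close to the DMSO range, with 48, 52 and 61 in Selumetinib, 54, 58 and 72 in Ulixertinib, 49, 49 and 61 in GDC0994 and 35, 54 and 78 in Encorafenib. In Volasertib, a PLK1 inhibitor, all 3 samples (36, 38 and 38) lay below the DMSO samples, as for 2.19% of the tested genes. The difference of -0.47 did not pass (adjusted p = 0.258).

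**Figure D3:**
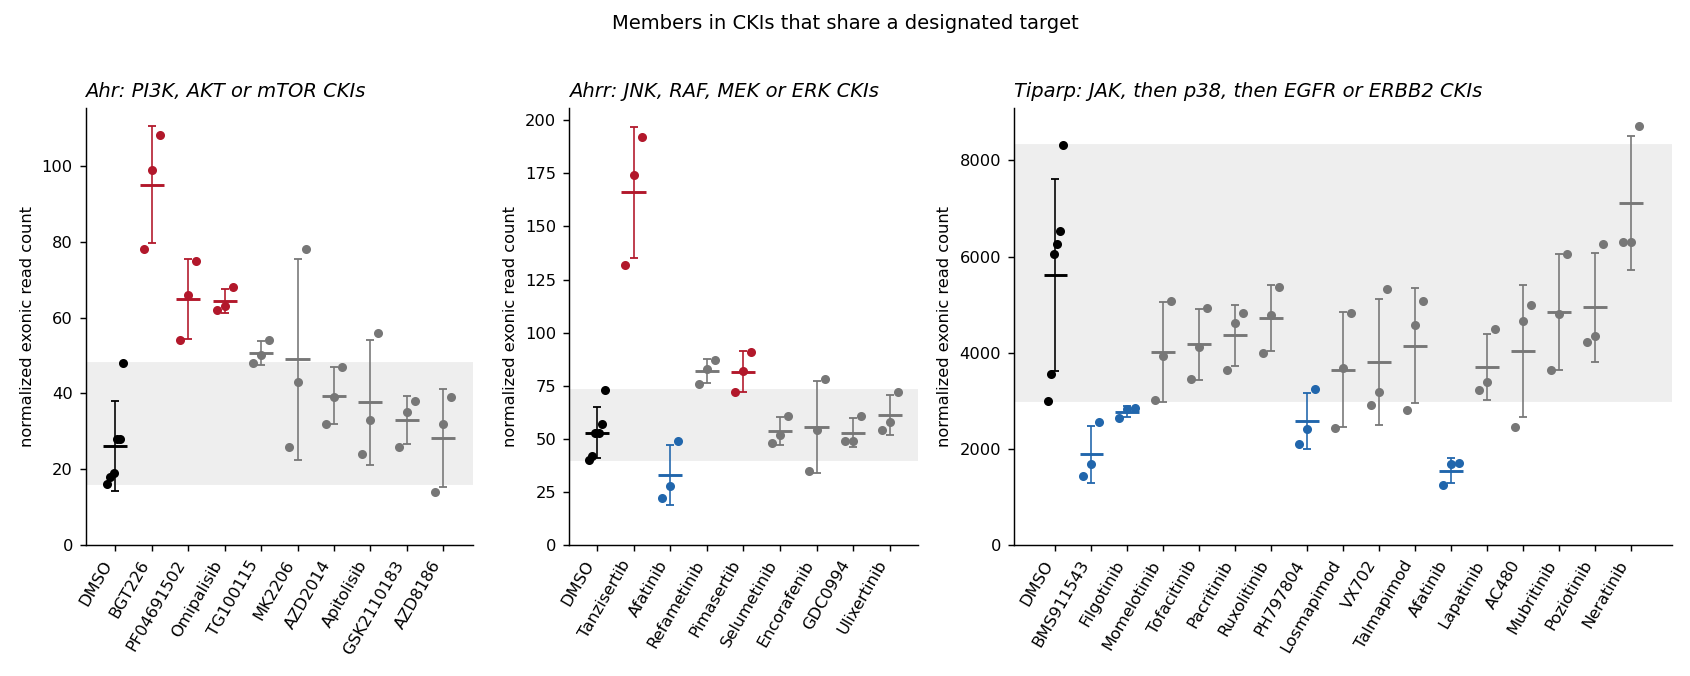
Normalized exonic read counts (y axes, linear from 0) of Ahr in CKIs designated against PI3K, AKT or mTOR, of Ahrr in CKIs intended for JNK or designated against RAF, MEK or ERK, and of Tiparp in CKIs designated against JAK, p38 and EGFR or ERBB2, beside the 6 DMSO samples (black, grey band from lowest to highest); bars are mean ± SD and red and blue mark adjusted p under 0.05. Within each class the values spread widely at the doses used, from 14 to 108 for Ahr and from 22 to 192 for Ahrr, and Tiparp is called lower in 4 of the 16 CKIs of its panel.

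Arnt, the partner of AhR (chr3:95434390-95497240, plus strand), was the steadiest of the 4 tested members. The DMSO samples ran from 357 to 594 with a median of 484.5 (mean 488 ± 91.3, SD, n = 6). The group means ran from 331 in Afatinib to 561 in Filgotinib, and no CKI had all its samples outside the DMSO range. In Afatinib Arnt had 213, 274 and 506 and fell by 0.64 on the log2 scale (SE 0.14, adjusted p = 0.000338). The third sample lay inside the DMSO range, and without CKI replicate 2 the difference was -0.37 (adjusted p = 0.165). In Pimasertib Arnt had 347, 372 and 392 and fell by 0.38 (SE 0.14, adjusted p = 0.0407). This call was lost in 15 of the 25 alternatives tried, among them leaving out any 1 of the 3 CKI replicates (adjusted p between 0.0721 and 0.157). It was also lost without DMSO set 1 replicate 2 (0.0715), set 2 replicate 2 (0.127) or set 2 replicate 3 (0.0913). Median-of-ratios scaling added Lapatinib (-0.40, adjusted p = 0.0396). No CKI raised Arnt, and with all samples and no covariate 0 CKIs were higher at an unadjusted p under 0.05. Against DMSO set 1 alone Filgotinib and BGT226 were higher at such a p and neither was called (adjusted p = 0.120 and 0.129).

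Tiparp (chr3:65528447-65555518, plus strand) was the most abundant member and the 1 that fell most often. In DMSO it had 2995, 3552, 6063, 6254, 6524 and 8313 (mean 5617 ± 1992, SD, n = 6), and the 2 low values were those of replicate 3 in both sets. In AZD2014, the mTOR inhibitor, it had 699, 1396 and 1447 and fell by 2.24 on the log2 scale (SE 0.26, adjusted p = 9.02e-12). In Afatinib it had 1254, 1682 and 1708 and fell by 1.79 (SE 0.26, adjusted p = 9.2e-08). In BMS911543, a JAK2 inhibitor, it had 1428, 1687 and 2561 and fell by 1.53 (SE 0.26, adjusted p = 2.77e-06). All 3 samples of each lay below every DMSO sample, and these 3 calls held in all alternatives tried. Of the tested genes, 10.0% lay wholly below DMSO in AZD2014, 4.77% in Afatinib and 6.72% in BMS911543, against 2.02% over all CKIs.

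The other 3 falls were smaller and less stable. In Filgotinib, a JAK1 inhibitor, Tiparp had 2636, 2840 and 2857, again all below DMSO as for 10.5% of the tested genes there. It fell by 0.93 (SE 0.26, adjusted p = 0.00534). Without CKI replicate 2 the adjusted p was 0.0597 (-0.89). In PH797804, a p38 inhibitor, it had 2098, 2405 and 3237 and fell by 1.06 (SE 0.26, adjusted p = 0.00851). Without CKI replicate 1 the adjusted p was 0.134 (-1.02). In Apitolisib it had 1918, 3380 and 4261, mostly within the DMSO range, and fell by 0.81 (SE 0.26, adjusted p = 0.0288). That call was lost in 14 of 25 alternatives, with adjusted p = 0.0506 without CKI replicate 1, 0.0746 without CKI replicate 2, 0.220 without CKI replicate 3 and 0.107 without DMSO set 2 replicate 2. The mitochondrial share was 1.49% to 4.04% in Apitolisib, and with it and the replicate block in the fit the adjusted p was 0.219.

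Lower calls were common in most of these CKIs. The share of tested genes called lower was 13.5% in AZD2014 (6.06% higher), 12.8% in Afatinib (9.06% higher), 8.08% in BMS911543 (0.472% higher) and 14.6% in Filgotinib (6.10% higher). It was 3.20% in Apitolisib (12.7% higher) and 1.25% in PH797804 (0.731% higher). Median-of-ratios scaling moved the share of calls that were higher from 79.9% to 47.7% in Apitolisib, from 29.4% to 41.1% in Filgotinib and from 36.9% to 19.8% in PH797804, and all 6 falls of Tiparp were called with it. Over all CKIs and tested genes it moved that share from 60.4% to 40.8%. The sum of the 4 LPS response genes was above that of all DMSO samples in Filgotinib (20089 to 30820) and in Apitolisib (21558 to 25618), and its part in the Tiparp values was not tested.

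The mean of Tiparp was below the DMSO mean in 56 of 58 CKIs, and the median difference over the CKIs was -0.34 on the log2 scale. At an unadjusted p under 0.05, 15 CKIs were lower and 0 higher. The highest mean, 7108 in Neratinib, came from 6301, 6310 and 8713 (0.41, adjusted p = 1.0). All CKIs share the 6 DMSO samples, so these differences are not independent of each other. Replicate 3 was the lowest of the 3 numbers in 35 of the 58 CKIs and replicate 1 was the highest in 31, and the medians over CKIs were 4847, 4380.5 and 3551 for numbers 1 to 3. Without replicate 3, 11 CKIs had a lower Tiparp, which lost Apitolisib and gained Bafetinib, IMD0354, Lapatinib, MK2206, Pacritinib and XL413. Without replicate 1 or without replicate 2, 3 CKIs did.

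As with Ahr, Tiparp was not called in all CKIs with a common designated target. A difference that was not called does not mean that a CKI left Tiparp as it was. Of the PI3K and mTOR inhibitors, AZD2014 and Apitolisib lowered it. BGT226 (-0.06 on the log2 scale), Omipalisib (0.06) and PF04691502 (-0.26) were not called. Of the JAK inhibitors, BMS911543 and Filgotinib lowered it, while Momelotinib stood at -0.43 on the log2 scale and was not called. Of the p38 inhibitors, PH797804 lowered it and Losmapimod stood at -0.59 (adjusted p = 0.545). Of the EGFR and ERBB2 inhibitors, Afatinib lowered it, Lapatinib stood at -0.53 (adjusted p = 0.118) and Neratinib at 0.41. Doses differ within each class, and the classes were drawn up after the values had been seen. The antisense gene 4931440P22Rik (chr3:65527483-65529414, minus strand) overlaps the first 968 bases of Tiparp. The libraries do not keep strand, so reads from that stretch cannot be assigned to either gene. It had a mean normalized value of 156 over all samples.

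Cyp1a1 (chr9:57687928-57703824, plus strand), the standard reporter of AhR activity, was at 0 in all 6 DMSO samples and in 166 of the 180 samples. The highest value anywhere was 2. It was above 0 in 14 samples of 13 CKIs, and TG100572 was the only CKI with more than 1 such sample (2 and 1). All these values are at or below a few reads, and no fold change is given. The lowest p of the exact two-sided permutation test over the 84 ways to divide 3 and 6 samples was 0.0833, adjusted over 58 CKIs to 1, where 0.0119 is the smallest p possible. A single CKI at that smallest p could not pass after adjustment over 58, so the adjusted value carries no information. With no filter on low genes limma called TG100572 higher, on values of 2 and 1 beside a 0. No CKI brought Cyp1a1 above 2 in any sample. Values this low cannot show whether a CKI induced it within that range.

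Cyp1b1 (chr17:79706940-79715061, minus strand) was measurable but low. DMSO had 1, 4, 5, 6, 14 and 22 (mean 8.67 ± 7.84, SD, n = 6), and the CKI samples ran from 0 to 35. The highest means were 18.0 in Tanzisertib (14, 19 and 21), 16.3 in Vatalanib (4, 10 and 35) and 16.0 in Momelotinib (14, 15 and 19). The lowest were in Afatinib and AZD2014, each with 1, 3 and 3, and in Lapatinib with 0, 2 and 6. No CKI lay wholly outside the DMSO range, and neighbours in this order do not differ beyond their spread. The exact two-sided permutation test gave a lowest p of 0.119, and 0 CKIs had an unadjusted p under 0.05. As for Cyp1a1, no single CKI could have passed after adjustment, so the adjusted value of 1 carries no information.

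What moved with Cyp1b1 was the replicate number. Replicate 2 was the highest of the 3 in 41 of 58 CKIs, with a median of 13 over the CKIs against 5 and 5 for replicates 1 and 3. The DMSO samples were ordered likewise, with 14 and 22 for replicate 2, 5 and 6 for replicate 1, and 1 and 4 for replicate 3. The sum of the 6 fibroblast markers had its highest median for the same number, 60.5 for replicate 2 against 33.5 and 27 for replicates 1 and 3, and its 2 highest DMSO values, 84 and 147, were those of replicate 2. The part of fibroblast RNA in the Cyp1b1 values was not tested. When labels were exchanged only within a replicate number, which allows 27 assignments, the lowest exact p for Cyp1b1 was 0.037, the smallest that this test can give. Its adjusted value of 0.716 could not have passed for a single CKI and carries no information. In Midostaurin, replicates 1 to 3 had 7, 26 and 8, each above both DMSO samples of its number. Lapatinib (2, 6 and 0) and Losmapimod (4, 7 and 0) lay below both in each replicate. The share of all genes and CKIs with such an order was not computed. Each direction is 1 of the 27 assignments, so a few of the 58 CKIs can show it by chance.

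**Figure D4:**
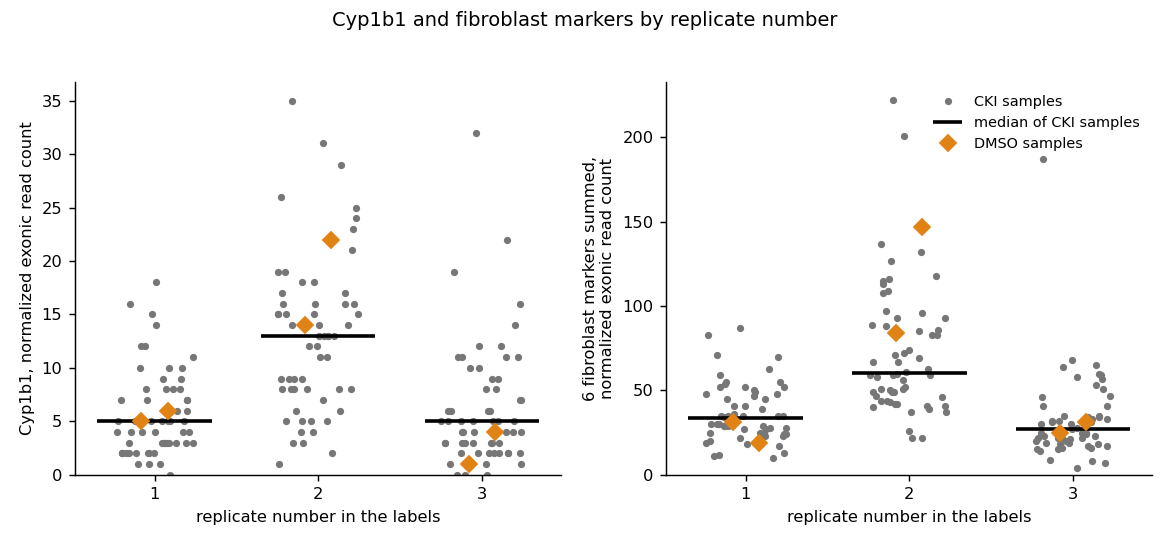
Cyp1b1 (left) and the sum of 6 fibroblast markers (right), both as normalized exonic read counts on linear y axes, in the 174 CKI samples (grey points) and the 6 DMSO samples (orange diamonds), split along the x axis by the replicate number in the labels, with the median of the CKI samples as a line. In both panels replicate 2 has the highest median, 13 against 5 and 5 for Cyp1b1 and 60.5 against 33.5 and 27 for the markers.

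Most of the 11 CKIs changed a single member. Afatinib, in which 12.8% of all tested genes were lower, lowered 3 (Ahrr, Arnt and Tiparp), Pimasertib raised Ahrr and lowered Arnt, PF04691502 raised Ahr and Ahrr, and each of the other 8 CKIs changed 1. Over the 59 group means, Spearman's correlation was 0.43 between Arnt and Tiparp and between -0.13 and 0.20 for every other pair of the 4 tested members. These are descriptions over groups that include the same DMSO samples. By the same measure the genes most like Ahr were Zfp36l2 (0.81), Sash1 (0.81) and Hmga2 (0.79), and those most like Tiparp were Clic4 (0.84), 4931440P22Rik (0.82), the antisense neighbour, and Stx11 (0.81). For Arnt they were LOC115489960 (0.71), Dnajc5 (0.69) and Nup160 (0.68). For Ahrr the best values were only 0.43 (Kdm6a), 0.42 (Dcaf1) and 0.41 (Dusp16), so the pattern of Ahrr across CKIs had no close match among the tested genes.

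The rest of the pathway was read from 4 lists. The chaperones of the receptor had 4 of 4 genes tested. The 2 genes for HSP90 were called higher in 6 CKIs (Hsp90aa1) and 3 CKIs (Hsp90ab1). Hsp90aa1 had 4654, 4707 and 4993 in Pimasertib against 1966 to 4250 in DMSO (0.59 on the log2 scale, adjusted p = 0.0271). Ptges3, which encodes p23, and Stub1, which encodes the ubiquitin ligase CHIP, were each called lower in 5 CKIs. AZD2014 had the lowest values for both. Ptges3 had 905, 1074 and 1512 there (-0.83, adjusted p = 5.01e-07) against 1683 to 2444 in DMSO, and Stub1 had 347, 438 and 451 (-1.26, adjusted p = 2.48e-05) against 633 to 1349. Of the list's 232 comparisons 3.88% were higher and 4.31% lower.

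Of the relatives and other partners of ARNT, Hif1a and Epas1 were expressed enough to be tested, 2 of 4 genes. Hif1a, the oxygen-regulated partner of ARNT, was called lower in 14 CKIs and higher in none, and 99.7% of the tested genes were called in fewer CKIs. Its DMSO samples ran from 1196 to 2501 (mean 1606). In AZD2014 it had 422, 480 and 579 and fell by 1.67 on the log2 scale (SE 0.21, adjusted p = 1.03e-10), and in Afatinib it had 433, 611 and 951 and fell by 1.30. The highest DMSO sample, 2501, was set 2 replicate 2, and without it Hif1a was lower in 7 CKIs rather than 14. The count depended on other choices as much, with 5 CKIs without CKI replicate 1, 7 without CKI replicate 2, 4 without replicate 2 of every group, 5 with DMSO set 1 alone and 21 with the replicate block. Epas1 was lower in Afatinib alone (-1.06, adjusted p = 0.00719). Over the list 12.9% of 116 comparisons were lower and 0% higher.

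Among other genes known as AhR targets, 9 of 15 were tested. Of their 522 comparisons 1.92% were higher and 0.575% lower, against 2.52% and 1.65% for all genes. Nfe2l2, which encodes the antioxidant regulator NRF2, was called higher in 5 CKIs, with 3443, 3742 and 3978 in Filgotinib against 1713 to 3166 in DMSO (0.64, adjusted p = 0.000461). Socs2, a suppressor of cytokine signalling, went both ways. It had 28, 46 and 63 in Omipalisib (1.09, adjusted p = 0.0208) and 5, 10 and 11 in Filgotinib (-1.17, adjusted p = 0.0163), against 15 to 32 in DMSO. Entpd1, the ectonucleotidase CD39, was called higher in BGT226 (1.08, adjusted p = 0.00758). Nqo1, a classical target that encodes a quinone reductase, was called in 0 CKIs with limma and had an unadjusted p under 0.05 in 5. Ugt1a6a and Ugt1a6b, which share exons, were called in 0 each and had such a p in 1. Their means (168 and 164) and their differences (0.239 and 0.241 in Pimasertib) were nearly the same. They are therefore not 2 independent genes of the list. In the 3 CKIs with a raised Ahr, the list had 3 of 9 genes higher in BGT226, 2 in Omipalisib and 0 in PF04691502, and none lower, where 24.1%, 17.5% and 8.86% of all tested genes were higher.

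The enzymes that break down tryptophan and can supply ligands had 5 of 11 genes tested. Afmid, which encodes the formamidase of the kynurenine route, was called higher in 5 CKIs. They were BGT226, Omipalisib and PF04691502, where Ahr was raised, and Pimasertib and Apitolisib, where Ahr was not called. Higher calls were common in them, with 24.1%, 17.5%, 8.86%, 16.0% and 12.7% of all tested genes in that order. Afmid had 56, 63 and 91 in BGT226 against 14 to 35 in DMSO (1.40, SE 0.24, adjusted p = 1.08e-06). Il4i1, an amino acid oxidase secreted by phagocytes, was called lower in 4 CKIs. In Pimasertib it had 197, 277 and 655 against 1019 to 2887 in DMSO (-2.31, SE 0.35, adjusted p = 8.63e-07). Ido1, Ido2 and Tdo2, which start the kynurenine route, had means of 0.344, 2.58 and 0.15 and were not tested. Of the 290 comparisons 1.72% were higher and 1.38% lower. Over the 4 lists 56 comparisons were called, a count that ranged from 14 to 72 when single replicates were left out and was 117 with the replicate block.

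**Figure D5:**
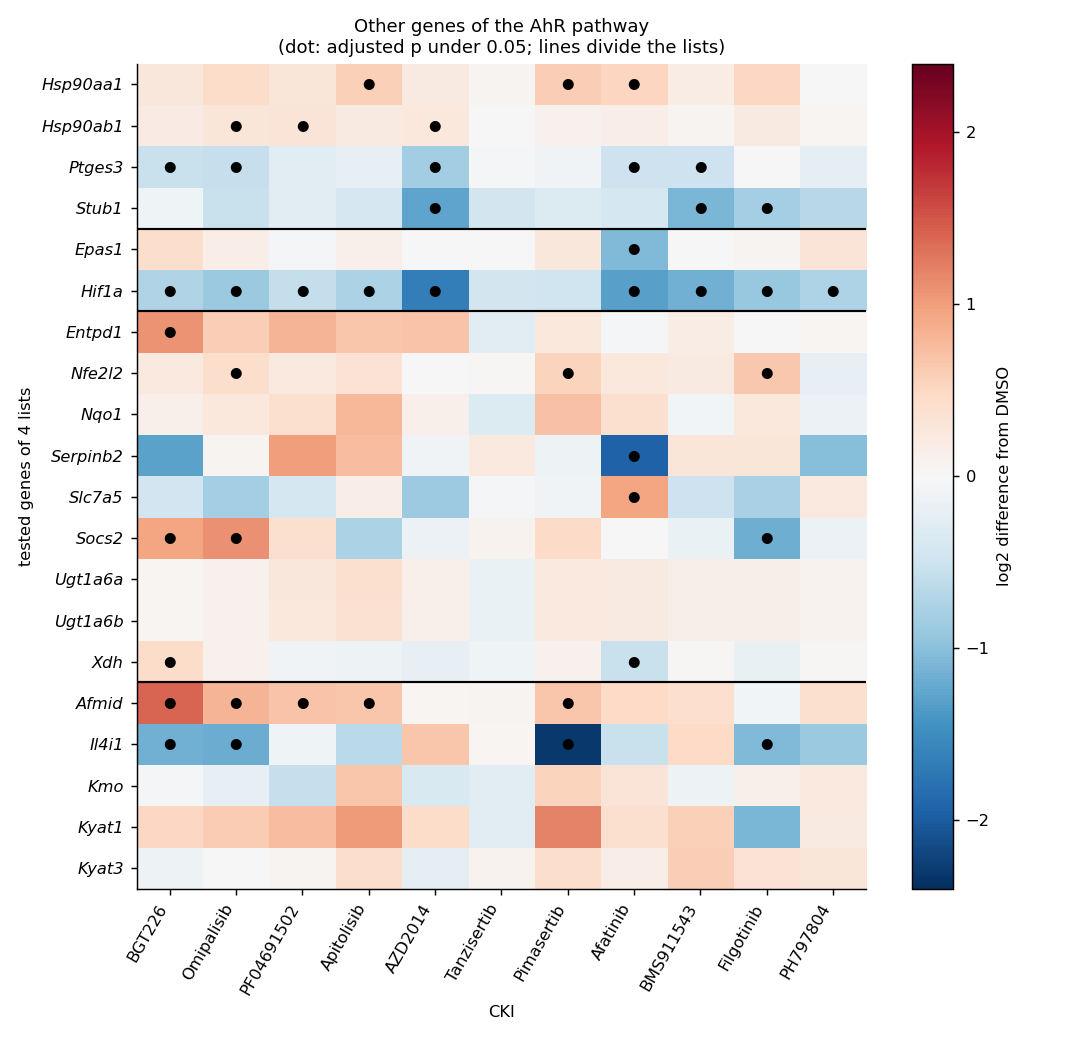
Difference from DMSO on the log2(normalized value + 1) scale (colour, red higher and blue lower) of the 20 tested genes of 4 pathway lists (rows, lists divided by lines) in the 11 CKIs that changed a member (columns), with a dot where the adjusted p was under 0.05. Hif1a is lower in 9 of the 11 columns, Afmid is higher in 5, Il4i1 is lowest in Pimasertib (-2.31), and the Tanzisertib column has no dot.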

How the data were processed

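RNA-seq of 58 CKIs and DMSO in LPS-treated BMDMs was analysed from 1 deposited table. The authors made polyA libraries by SMART-seq2 with Tn5, aligned reads with TopHat2 2.1.1 to mm10, kept 1 alignment per read, removed blacklisted regions (bedtools 2.29.2), counted reads on exons of curated RefSeq genes, scaled samples on invariant genes and rounded. These deposited values are a score rather than counts, called normalized read counts here, and whole reads could not be recovered. The authors tested them with DESeq2 without its own normalization (R 3.6.2).

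Here limma 3.58.1 (R 4.3.3) was fitted to all 59 groups on log2(value + 1) with a variance trend for 12714 genes with a mean of at least 10, each CKI against 6 DMSO samples, with Benjamini-Hochberg adjustment over genes. Cyp1a1 and Cyp1b1 were compared by exact permutation tests. The methods call the samples of a CKI independent biological replicates, and 0 of 189 replicate pairs were identical. Same-numbered CKI and DMSO samples deviated together (correlation over 0.1 in all 3 pairs) in 34 of 58 CKIs, among them Lenvatinib, TG100115 and Refametinib. The fit was tested on simulated data.

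Members and lists were chosen with earlier results of these data known. CKIs were named where a member had an adjusted p under 0.05, and those near it, at the ends or in the same drug class were added after their values were seen. An item of the pathway lists is not reported here. Alternatives covered pseudocount, filter, scaling, DMSO set, samples fitted, block and replicates left out. The totals are sums of scaled values and do not give the sequencing depth. Low genes carry a large counting error whose size is not known.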

Additional observations from a re-analysis of the deposited data

Results flagged for a closer look

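Hif1a in DMSO had 1 sample apart from the other 5, with 2501 in the sample of set 2 replicate 2 and 1684 as the next value. Its gap to that value took up 0.626 of the whole range of the 6 samples, just above Dixon's 95% critical value for 6 samples. Chance gives such a gap in about 1 of 20 groups. Without this sample Hif1a was called lower in 7 CKIs instead of 14 (limma). The count moved as far or further under other choices, to 5 without CKI replicate 1, 7 without CKI replicate 2, 5 with DMSO set 1 alone and 21 with the replicate block.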

How the results depend on the processing

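Of 372 alternative values of single named differences, 295 kept their call, 77 lost it and 0 changed sign. Of 187 alternative counts of CKIs or calls, 142 stayed within 1.5 times and 45 did not. Ahr in BGT226 and Tiparp in AZD2014, Afatinib and BMS911543 were called in every alternative. Against 3 CKIs for Ahr, 4 for Ahrr, 2 for Arnt and 6 for Tiparp, fits of only the groups compared gave 2 for Ahr (PF04691502 was lost, adjusted p = 0.0541), 0 for Ahrr, 0 for Arnt and 3 for Tiparp. DMSO set 1 alone gave 2 for Ahrr, 1 for Arnt and 3 for Tiparp. Adjusting p over all genes and CKIs gave 2 for Ahrr and 1 for Arnt, and a log2 difference of at least 1 gave 1 and 0. Median-of-ratios scaling gave 2 for Ahrr, and no filter gave 1 for Arnt and 1 for Cyp1a1 (TG100572, main 0). The replicate block gave 5 for Ahr, and with the mitochondrial share 1 for Arnt. It changed no other member's call beyond those given beside the results. Pathway calls were 56, and were 15 with a difference of at least 1, 24 with DMSO set 1 alone, 22 with only the groups compared and 117 with the replicate block. Of the 12 genes most like a member, 7 were kept with Pearson's correlation. Leaving out replicates gave 1 to 5 CKIs for Ahr, 1 to 5 for Ahrr, 0 to 2 for Arnt, 3 to 11 for Tiparp, 0 to 0 for Cyp1a1 and Cyp1b1 (where the permutation test could not call a single CKI, so that 0 shows no stability), 2 to 4 members in the F test and 14 to 72 pathway calls. The causes were not tested. Ahr has no value with a mean of at least 50, and the fits without a variance trend, with the mitochondrial share or on only the groups compared do not apply to the permutation tests. Every CKI is compared with the same 6 DMSO samples. The limma p-values use a spread pooled over all groups fitted, so the SE of a gene is the same for every CKI. Only the permutation tests and the fits of only the groups compared rest on the 3 and 6 samples of a comparison.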
